A study of Mus musculus with 9 samples.

Results

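Nerve injury and regeneration genes were followed in the trigeminal ganglion (TG), which holds the cell bodies of the sensory neurons of the face and jaw, after inflammation of the temporomandibular joint (TMJ). The 9 genes were Jun, Atf3, Sox11, Gap43, Sprr1a, Flrt3, Csf1, Ecel1 and Gadd45a, taken by name from genes known to respond to axon damage, with no measured value in the rule that picks them, although earlier results of these data were known when they were chosen. They are 9 of 21809 genes summed from the table of mRNA transcripts, and all 9 were among the 16096 gene sums that reached 0.1 FPKM on average and were tested. FPKM counts sequenced fragments per length of transcript, scaled to the mapped fragments of the library, and a gene sum adds the FPKM of all mRNA transcripts of a gene.

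The mice were male wild-type C57BL/6 animals of 8 weeks. Under isoflurane anaesthesia, 1 joint received 10 µl of complete Freund's adjuvant (CFA, 5 mg/ml), an emulsion of killed mycobacteria that inflames the joint, or 10 µl of saline. The TG was taken on day 3 (CFA3D) or day 6 (CFA6D) after CFA, and the saline group carries the label of day 3 only, so that day 6 after saline was not analysed here. Each group had 3 libraries, and each library pooled tissue punches of the TG of 3 mice. The p-values below therefore measure the spread between pools. CFA was placed in a joint and no nerve was cut, so the model is one of inflamed tissue supplied by the ganglion.

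When a peripheral axon is cut, the neuron's cell body switches on transcription factors such as Jun, Atf3 and Sox11. These factors drive genes of the growing axon, among them Gap43 and Sprr1a, and the neuron also makes signals such as Csf1 that act on surrounding immune cells. Inflammation of the target tissue is known mainly for raising peptides, ion channels and growth factor signalling in sensory neurons, and damage to nerve endings within inflamed tissue can switch on some of the injury genes as well.

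Jun was the member with the clearest difference, and sequences bound by its own family were looked for in the promoters of all members. Jun and Atf3 belong to a family of factors that bind DNA in pairs, at TGANTCA (the AP-1 sequence), at TGACGTCA (the cyclic AMP response sequence) or at TGACNTCA, which includes TGACGTCA. The RefSeq promoters of GRCm38.p6 were searched on both strands over the 250 bases before the gene start, and 8 of the 9 members had an entry (Gap43 had none). TGACNTCA was present in 4 of the 8, in Jun, Flrt3, Sox11 and Sprr1a, and in 7.488% of all 32851 promoters searched. TGANTCA was present in Sprr1a, in 2 copies, and in 6.749% of all promoters, while TGACGTCA was in none of the 8 and in 1.546% of all. The promoters of Atf3, Csf1, Ecel1 and Gadd45a held none of the 3 sequences in this window. The 250 bases before the Jun start are shown whole, and for the other members a stretch of 48 bases around the match, with the matched letters in capitals, so that the shared letters can be read against each other. All 4 genes lie on the minus strand and the letters are given 5′ to 3′ on that strand. A match describes letters only.
Jun, chr4:95052223-95052472: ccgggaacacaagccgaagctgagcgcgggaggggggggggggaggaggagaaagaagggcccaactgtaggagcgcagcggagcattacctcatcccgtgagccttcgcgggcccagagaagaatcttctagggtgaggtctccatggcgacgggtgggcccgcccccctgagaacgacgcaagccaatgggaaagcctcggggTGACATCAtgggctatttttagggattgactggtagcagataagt
Flrt3, chr2:140671490-140671537: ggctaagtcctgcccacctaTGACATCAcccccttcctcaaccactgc
Sox11, chr12:27342733-27342780: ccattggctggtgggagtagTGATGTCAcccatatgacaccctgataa
Sprr1a, chr3:92486061-92486108: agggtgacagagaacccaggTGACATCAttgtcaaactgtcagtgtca

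The match ended close to the start in 3 of these promoters. It lay 45 to 38 bases before the start of Jun, 41 to 34 bases before that of Flrt3 and 42 to 35 bases before that of Sox11. In Sprr1a it lay 207 to 200 bases before the start, and the 2 copies of TGAGTCA lay at 146 to 140 and at 116 to 110 bases before it. The Sox11 letters TGATGTCA are TGACATCA read on the other strand. The 4 genes with the match did not move together in the TG: Jun rose, as described next, and the gene sums of Flrt3, Sox11 and Sprr1a did not pass the test in any comparison with all 9 libraries.

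The members spanned a wide range of levels over the 9 libraries. Gap43 was the highest with a mean of 48.8 FPKM, above 95.2% of the gene sums tested, and Jun followed with 22.8 FPKM. Gadd45a had a mean of 9.63 FPKM, Csf1 of 6.19 FPKM, Flrt3 of 3.96 FPKM, Atf3 of 2.65 FPKM and Sox11 of 1.398 FPKM. Sprr1a with 0.566 FPKM and Ecel1 with 0.493 FPKM were close to the filter. In this order the library ranges of Flrt3 and Atf3, of Atf3 and Sox11, of Sox11 and Sprr1a, and of Sprr1a and Ecel1 overlapped, and the other neighbours did not. Read from the steps of low FPKM values, the scaling of the libraries amounted to 30000000 to 42200000 read pairs. For a length of 1 kb a single pair then gave 0.0237 to 0.0333 FPKM. This is an inferred depth behind the FPKM and not the number of reads sequenced, which the paper gives by group. Jun thus rested on about 1785 to 3428 read pairs per library, whereas Sprr1a rested on 2.0 to 62.8 and Ecel1 on 5.2 to 208.8.

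**Figure D1:**
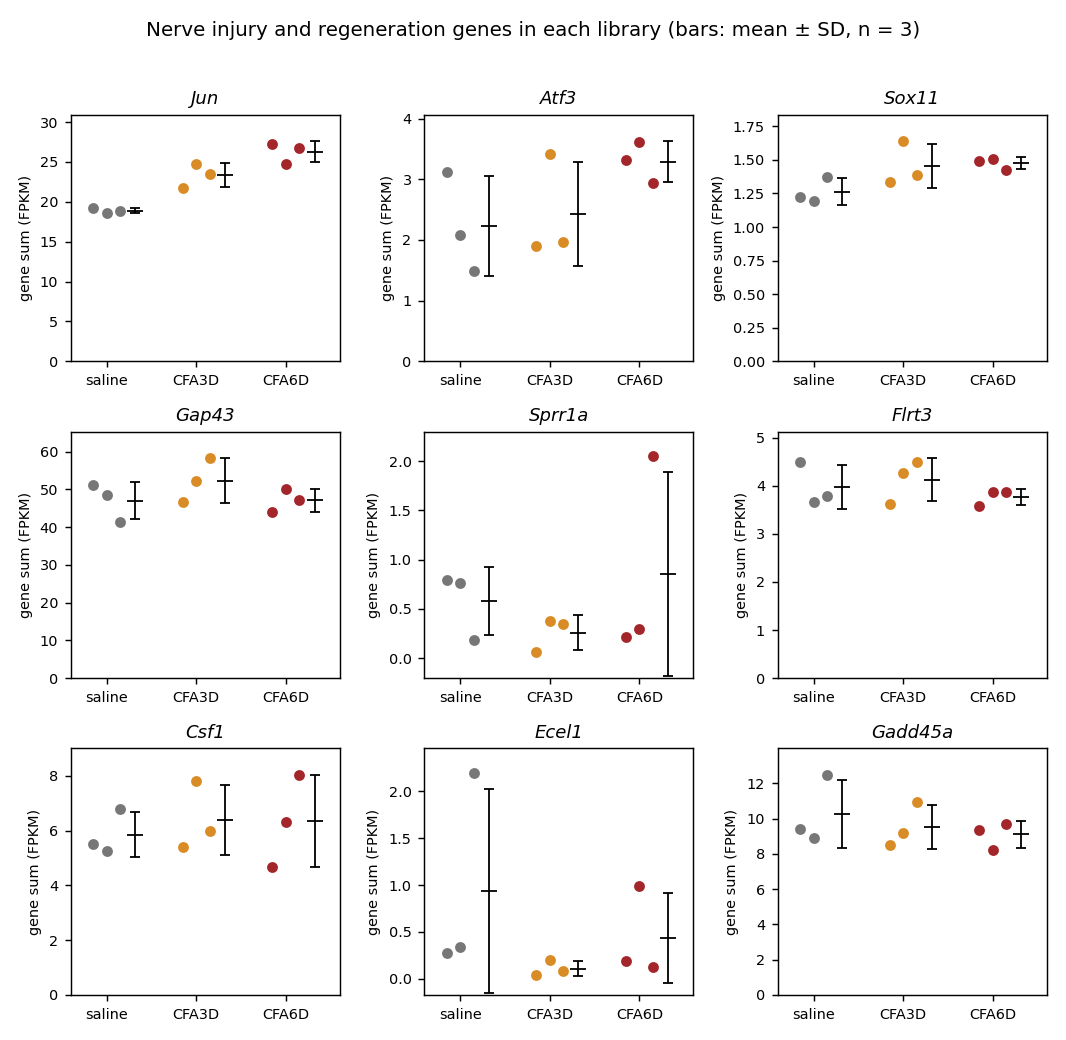
Gene sums of the 9 members in FPKM (vertical axis) in each library of the saline, CFA3D and CFA6D groups, with 1 point per library and the mean ± SD of each group (n = 3) beside its points. Jun stands apart in all 3 groups, from 18.7 to 19.2 FPKM after saline to 24.8 to 27.3 FPKM on CFA6D, while single high libraries stand out for Sprr1a (CFA6D replicate 6) and Ecel1 (saline replicate 3 and CFA6D replicate 5).

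Some libraries stood apart from their groups. On a principal component analysis, CFA6D replicate 6 lay at 48.28 on the first component (27.84% of the variance), with the others between -16.09 and 3.863. Its 8 neutrophil and marrow markers summed to 2762 FPKM against 28.6 to 142.2 FPKM elsewhere. The other CFA6D libraries, at 142.2 and 130.5 FPKM, were also above saline (56.2 to 127.6 FPKM) and CFA3D (28.6 to 82.3 FPKM). Between the days 6 of the 8 were higher on CFA6D at an unadjusted limma p under 0.05, beside 7.39% of all gene sums called. The part of these cells in the calls below was not tested. The 6 pituitary markers summed to 10656 FPKM in saline replicate 3 and to 8.9 to 1115 FPKM in the others. The 14 sensory neuron markers, which include the general neuron gene Tubb3 and the nociceptor gene Scn10a, were present in every library at a sum of 2686 to 4048 FPKM. In bulk tissue, fewer cells of a type and less RNA per cell cannot be told apart. Results that rest on saline replicate 3 or CFA6D replicate 6 are given with and without them.

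Jun codes for the transcription factor c-Jun, a subunit of AP-1 that is needed for efficient axon regrowth. The gene (ENSMUSG00000052684, chr4:95049034-95052222) has 1 transcript of a single exon. After saline, Jun was at 19.2, 18.7 and 18.8 FPKM in replicates 1, 2 and 3. On CFA3D it was at 21.7, 24.8 and 23.5 FPKM in replicates 1, 2 and 3, and on CFA6D at 27.3, 24.8 and 26.7 FPKM in replicates 4, 5 and 6. Every CFA library was above every saline library, and the 3 CFA6D libraries were above those of CFA3D, with the closest pair both at 24.8 FPKM. Jun rose 1.23-fold on CFA3D, with a log2 difference of 0.30 (SE 0.075, 95% interval 0.13 to 0.47). On CFA6D it rose 1.39-fold, with a log2 difference of 0.47 (SE 0.075, 95% interval 0.30 to 0.64). The direct comparison of CFA6D with CFA3D gave a log2 difference of 0.17 (SE 0.075, 95% interval 0.0025 to 0.34). All 3 passed the test, an unadjusted limma p under 0.05, and "rose", "fell" and "passed" are used in this sense throughout.

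After Benjamini-Hochberg adjustment over all gene sums, no comparison of Jun stayed under 0.05, and its limma adjusted p was 0.997 on CFA3D, 0.0861 on CFA6D and 0.671 between the days. On CFA3D no gene sum had an adjusted p below 0.997, so it is not repeated for each gene. By its p, Jun ranked 20 of 16096 on CFA6D and 28 of 16096 on CFA3D. The small spread of Jun within groups is part of this rank, since its pooled SD of 0.071 on the log2 scale was below that of all but 3.28% of the gene sums. Without saline replicate 3 and CFA6D replicate 6, the log2 differences of Jun were 0.30 on CFA3D and 0.46 on CFA6D, which passed, and 0.16 between the days, which did not. Of the 9 fits that each left out 1 library, 3 kept the call between the days (those without saline replicate 1, CFA3D replicate 2 or CFA6D replicate 5), the log2 difference over the 9 being 0.12 to 0.21, and all 9 kept both calls against saline. Jun has a single transcript, and in the fit across all transcripts the same values passed against saline and did not pass between the days (95% interval -0.03 to 0.37).

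Some marker lists differed between the groups as well, the sensory neuron markers on both days and the other lists given here on CFA6D, where 11.1% of all gene sums were called (4.45% on CFA3D). The summed sensory neuron markers were at 2686 to 3362 FPKM after saline, 3184 to 3793 FPKM on CFA3D and 3359 to 4048 FPKM on CFA6D, and 2 and 5 of the 14 were higher at p under 0.05 on CFA3D and CFA6D. The sums of both CFA groups overlapped with saline. Without saline replicate 3, at 2686 FPKM, the saline sums were 3097 and 3362 FPKM. Per 1000 FPKM of these markers, Jun was at 5.71, 6.02 and 6.996 in the saline libraries, at 6.13, 7.78 and 6.20 on CFA3D and at 6.74, 7.37 and 7.66 on CFA6D. On this scale, chosen after the values were seen, the group means were 6.24 after saline, 6.70 on CFA3D and 7.26 on CFA6D. They lay closer together than the means of 18.9, 23.3 and 26.3 FPKM. The CFA groups overlapped with saline only through saline replicate 3, at 6.996. The other saline libraries, at 5.71 and 6.02, lay below every CFA library, of which the lowest was at 6.13. The 12 immediate early genes on a list without Jun summed to 39.6 to 43.9 FPKM after saline, 37.4 to 51.3 FPKM on CFA3D and 62.9 to 75.4 FPKM on CFA6D, and 6 of the 12 were higher at p under 0.05 on CFA6D and 0 on CFA3D. Of 9 targets of glucocorticoid hormone, 7 were higher at p under 0.05 on CFA6D and 0 on CFA3D, with sums of 155.6 to 281.8 FPKM after saline, 146.8 to 278.8 FPKM on CFA3D and 374.0 to 475.1 FPKM on CFA6D. The part of these lists in the Jun values was not tested.

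The gene sum whose values were most like those of Jun over the 9 libraries was Prdm12, a transcriptional regulator of nociceptors, with a Pearson r of 0.98 and a Spearman rho of 0.95 among 13174 gene sums of at least 1 FPKM. The 9 libraries share groups and depth, and the r describes these libraries only. By the same measure the nearest gene sums were Tecpr2 for Atf3 (r of 0.94), Tdg for Sox11 (0.97), Sdhaf4 for Gap43 (0.96), Dusp22 for Sprr1a (0.96), Nxt2 for Flrt3 (0.96), Srrt for Csf1 (0.97), Mageh1 for Ecel1 (0.92) and Syt14 for Gadd45a (0.94). No member was the nearest of another, but Sprr1a and Ecel1, below 1 FPKM on average, were not among the genes searched. A search that names 1 gene for each member cannot show whether the members move together. The antisense gene Junos overlaps Jun on the other strand. Its overlapping transcript, ENSMUST00000142292, was listed in the lncRNA table at 0.318 to 0.386 FPKM after saline, 0.242 to 0.280 FPKM on CFA3D and 0.218 to 0.453 FPKM on CFA6D. The more abundant ENSMUST00000125917, which starts outside the Jun gene, was at 0.979 to 1.01 FPKM after saline, 1.33 to 1.79 FPKM on CFA3D and 0.898 to 1.41 FPKM on CFA6D, and the third, ENSMUST00000124166, was at 0.0601 to 0.127, 0.0916 to 0.368 and 0.188 to 0.282 FPKM. The sources differ on the kit and only 1 of them names a stranded one, so reads of the 2 strands may not be separated.

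Atf3, a stress-induced partner of Jun that is nearly silent in uninjured neurons and a standard mark of axotomy, did not pass the test as a gene sum. The gene (ENSMUSG00000026628, chr1:191170296-191218039) was at 3.11, 2.09 and 1.48 FPKM after saline, at 1.90, 3.41 and 1.96 FPKM on CFA3D and at 3.32, 3.61 and 2.94 FPKM on CFA6D. Both CFA groups overlapped with saline, and 1 saline library was above the lowest CFA6D library. The log2 difference was 0.13 on CFA3D (95% interval -0.52 to 0.77). On CFA6D it was 0.60 (95% interval -0.05 to 1.24, adjusted p = 0.491), an interval that ends at 2.37-fold. Without saline replicate 3 and CFA6D replicate 6, the log2 difference on CFA6D was 0.43. It passed without saline replicate 1 (log2 difference 0.86) and without CFA3D replicate 2 (0.60), and without the latter it also passed between the days (0.73).

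The main transcript of Atf3, unlike the gene sum, passed the test on CFA6D against saline and against CFA3D with all libraries. ENSMUST00000027941, a coding transcript of 4 exons that carried 83.6% of the gene's mean, was at 2.53, 1.54 and 1.19 FPKM after saline, at 1.90, 2.13 and 1.74 FPKM on CFA3D and at 3.05, 3.31 and 2.55 FPKM on CFA6D. The lowest CFA6D library was just above the highest saline library, and CFA6D was above CFA3D throughout. It rose on CFA6D by 0.79 on the log2 scale against saline (SE 0.26, adjusted p = 0.632) and by 0.60 against CFA3D (SE 0.26, adjusted p = 0.916). The call between the days was lost without saline replicate 2, CFA3D replicate 1 or 3, or CFA6D replicate 5. Against saline, 1 member transcript passed on CFA6D without CFA6D replicate 5, beside 2 with all libraries. The second transcript, ENSMUST00000195117, starts further upstream, and was at 0.584, 0.545 and 0.187 FPKM after saline, 0, 1.28 and 0.224 FPKM on CFA3D and 0.273, 0.300 and 0.394 FPKM on CFA6D. The value of 1.28 FPKM was in CFA3D replicate 2, the library with the highest Atf3 sum of its group. That gene sum, 3.41 FPKM, lay within the range of the CFA6D sums, 2.94 to 3.61 FPKM.

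Sox11, a transcription factor of developing and regenerating neurons, was low and even. The gene (ENSMUSG00000063632, chr12:27334264-27342574, 1 exon) was at 1.23, 1.19 and 1.37 FPKM after saline, at 1.34, 1.64 and 1.39 FPKM on CFA3D and at 1.49, 1.51 and 1.43 FPKM on CFA6D. The CFA6D libraries were above all saline libraries and CFA3D overlapped with saline. The log2 differences were 0.18 on CFA3D and 0.21 on CFA6D (95% interval -0.13 to 0.55, adjusted p = 0.664), and the upper bound on CFA6D is 1.47-fold.

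Gap43 is a membrane protein of growth cones that adult sensory neurons make at a high level without injury. The gene (ENSMUSG00000047261, chr16:42248442-42340651) was at 51.2, 48.4 and 41.5 FPKM after saline, at 46.5, 52.1 and 58.3 FPKM on CFA3D and at 44.1, 50.01 and 47.1 FPKM on CFA6D. The 3 groups overlapped. The log2 difference was 0.15 on CFA3D (95% interval -0.09 to 0.40) and 0.01 on CFA6D (95% interval -0.24 to 0.25, adjusted p = 0.987). With about 2061 to 2981 read pairs per library, the intervals end at 1.32-fold on CFA3D and 1.19-fold on CFA6D. The coding transcript ENSMUST00000102817 carried 99.8% of the gene's mean.

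Sprr1a, a small proline-rich protein of skin that injured sensory neurons switch on and that promotes axon outgrowth, was near the limit of detection. The gene (ENSMUSG00000050359, chr3:92483952-92485895) was at 0.796, 0.766 and 0.185 FPKM after saline, at 0.0588, 0.376 and 0.344 FPKM on CFA3D and at 0.216, 0.295 and 2.05 FPKM on CFA6D. The highest value was that of CFA6D replicate 6, with about 62.8 read pairs, and the groups overlapped. The log2 difference on CFA6D was 0.09 (95% interval -1.65 to 1.84, adjusted p = 0.974) with all libraries. Without saline replicate 3 and CFA6D replicate 6 it was -1.32 and passed. On CFA3D it was -0.91 (95% interval -2.65 to 0.84) with all libraries, and -1.45, which passed, without those 2. Among the 10 markers of keratinocytes and squamous epithelium, Sprr1b and Sprr2d were at 0 in all libraries, and the 10 summed to 0.723 to 5.03 FPKM, with 0.957 FPKM in CFA6D replicate 6.

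**Figure D2:**
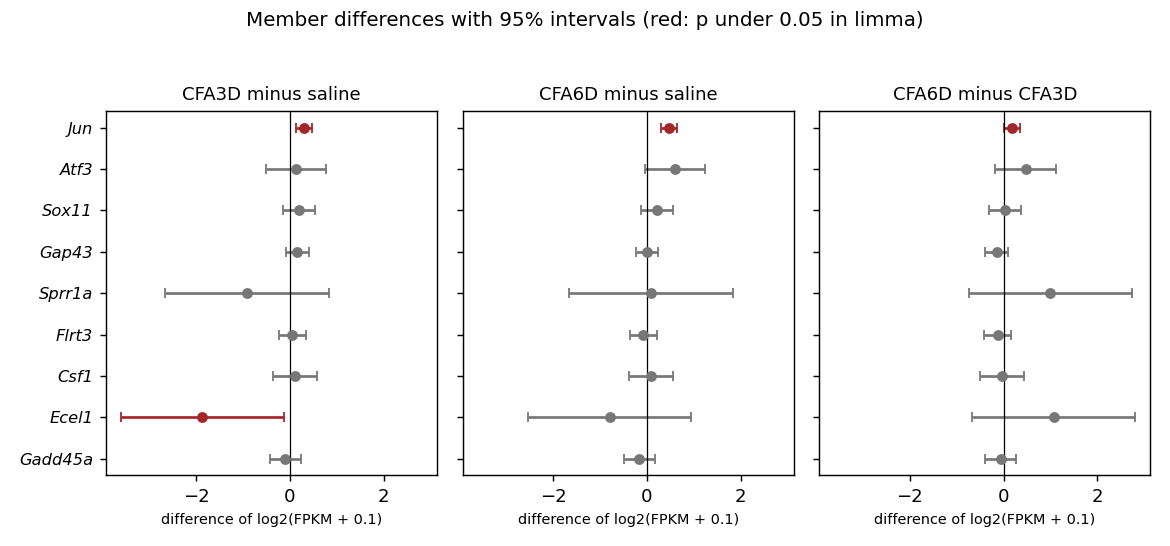
Differences of log2(FPKM + 0.1) for the gene sums of the 9 members in 3 comparisons (horizontal axis), with 95% intervals from limma and red points where the unadjusted p was under 0.05. Jun lies above 0 in all 3 comparisons with short intervals, Ecel1 lies below 0 on CFA3D with an interval from -3.61 to -0.13, and the other intervals include 0.

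Flrt3, a transmembrane protein with leucine-rich repeats that takes part in FGF signalling and axon guidance, did not pass the test as a gene sum. The gene (ENSMUSG00000051379, chr2:140650914-140671469) lies within the long gene Macrod2 of the opposite strand. It was at 4.51, 3.66 and 3.79 FPKM after saline, at 3.62, 4.27 and 4.49 FPKM on CFA3D and at 3.58, 3.86 and 3.87 FPKM on CFA6D. The groups overlapped, and the log2 differences were 0.05 on CFA3D (95% interval -0.24 to 0.34) and -0.07 on CFA6D (95% interval -0.36 to 0.22). ENSMUST00000110057 carried 80.9% of the mean, at 2.41 to 3.87 FPKM per library. The second transcript, ENSMUST00000056760, fell by 1.21 on the log2 scale on CFA3D (SE 0.53, adjusted p = 0.989), from 0.869, 0.341 and 1.16 FPKM to 0.125, 0.381 and 0.304 FPKM, and the 2 groups overlapped. This call was lost without saline replicate 3, which held the 1.16 FPKM. It was lost as well without CFA3D replicate 1 or 3 or CFA6D replicate 5 or 6.

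Csf1, the colony-stimulating factor that injured sensory neurons release and that acts on macrophages and microglia through the receptor Csf1r, did not pass the test. The gene (ENSMUSG00000014599, chr3:107741048-107760469) was at 5.51, 5.25 and 6.77 FPKM after saline, at 5.39, 7.82 and 5.97 FPKM on CFA3D and at 4.67, 6.33 and 8.03 FPKM on CFA6D. The CFA6D libraries held both the lowest and the highest value of all. The log2 differences were 0.12 on CFA3D (95% interval -0.35 to 0.59) and 0.09 on CFA6D (95% interval -0.38 to 0.56, adjusted p = 0.901). Of its 7 transcripts, 6 passed the filter, and the 2 most abundant were coding. ENSMUST00000014743 was at 1.39 to 4.94 FPKM per library and ENSMUST00000118593 at 0 to 2.25 FPKM. The shorter ENSMUST00000120654 rose by 0.70 on the log2 scale between CFA3D and CFA6D (SE 0.31, adjusted p = 0.916), from 0.131 ± 0.035 to 0.279 ± 0.083 FPKM (SD, n = 3), on 2.9 to 10.3 read pairs. Csf1r, named here as the receptor of Csf1 after its values were seen, was at 13.2 ± 1.71 FPKM after saline and 10.7 ± 2.67 FPKM on CFA6D (log2 difference -0.33, adjusted p = 0.597).

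Ecel1, a membrane peptidase also called DINE that is known for its strong induction in injured neurons, was low and varied widely between the libraries of a group. The gene (ENSMUSG00000026247, chr1:87147655-87156521) was at 0.273, 0.339 and 2.19 FPKM after saline, at 0.0415, 0.198 and 0.0834 FPKM on CFA3D and at 0.189, 0.994 and 0.128 FPKM on CFA6D. The CFA3D libraries were below all saline libraries. Ecel1 fell by 1.87 on the log2 scale on CFA3D (SE 0.77, 95% interval -3.61 to -0.13, adjusted p = 0.997), and on CFA6D the log2 difference was -0.79 (95% interval -2.53 to 0.95, adjusted p = 0.743). Saline replicate 3 and CFA6D replicate 5, the 2 libraries with the highest Ecel1, had pituitary marker sums of 10656 and 408.8 FPKM, while CFA6D replicate 4, with 1115 FPKM of these markers, held 0.189 FPKM of Ecel1. Without saline replicate 3 the log2 difference on CFA3D was -1.03 and did not pass, and the call was lost as well without CFA3D replicate 1 (-1.63) or CFA3D replicate 3 (-1.81). On CFA6D the direction turned, to a log2 difference of 0.04 without saline replicate 3 and of 0.47 without saline replicate 3 and CFA6D replicate 6, and neither passed. The part of pituitary tissue in the Ecel1 values was not tested.

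The FPKM assigned to the Ecel1 transcripts did not follow 1 pattern in these libraries. The 3 transcripts tested overlap over most of their genomic span, and how shared reads were divided between them is not given. ENSMUST00000160810 and ENSMUST00000027463 were at 0.992 and 0.791 FPKM in saline replicate 3 and at 0.343 and 0.141 FPKM in CFA6D replicate 5. Both were at 0.0182 FPKM or less in the other 7 libraries. ENSMUST00000161002 was at 0.0164 to 0.273 FPKM per library, and saline replicate 3 held its lowest value.

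Gadd45a, a stress protein induced by growth arrest and DNA damage and by axotomy, did not pass the test as a gene sum. The gene (ENSMUSG00000036390, chr6:67035096-67037457) was at 9.39, 8.89 and 12.5 FPKM after saline, at 8.51, 9.20 and 10.9 FPKM on CFA3D and at 9.36, 8.23 and 9.71 FPKM on CFA6D. The groups overlapped, with log2 differences of -0.09 on CFA3D (95% interval -0.42 to 0.23) and -0.16 on CFA6D (95% interval -0.49 to 0.17). The coding transcript ENSMUST00000043098 carried only 32.8% of the gene's mean. It was at 2.42, 3.39 and 1.59 FPKM after saline, 3.74, 4.41 and 2.76 FPKM on CFA3D and 3.81, 3.78 and 2.52 FPKM on CFA6D, with log2 differences of 0.58 (adjusted p = 0.989) and 0.47 (adjusted p = 0.813).

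Transcripts with a retained intron made up most of the rest of Gadd45a. ENSMUST00000126194, the second most abundant, was at 2.14 to 3.41 FPKM per library. ENSMUST00000151958 was highest in saline replicate 3 with 5.91 FPKM and in CFA6D replicate 6 with 3.73 FPKM, against 1.04 to 2.89 FPKM in the others. ENSMUST00000128617 fell by 0.68 on the log2 scale between CFA3D and CFA6D (SE 0.28, adjusted p = 0.916), from 1.08 ± 0.28 to 0.633 ± 0.144 FPKM (SD, n = 3). The gene E230016M11Rik overlaps Gadd45a on the opposite strand, and its 3 transcripts were listed at means of 0.282 to 1.07 FPKM.

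**Figure D3:**
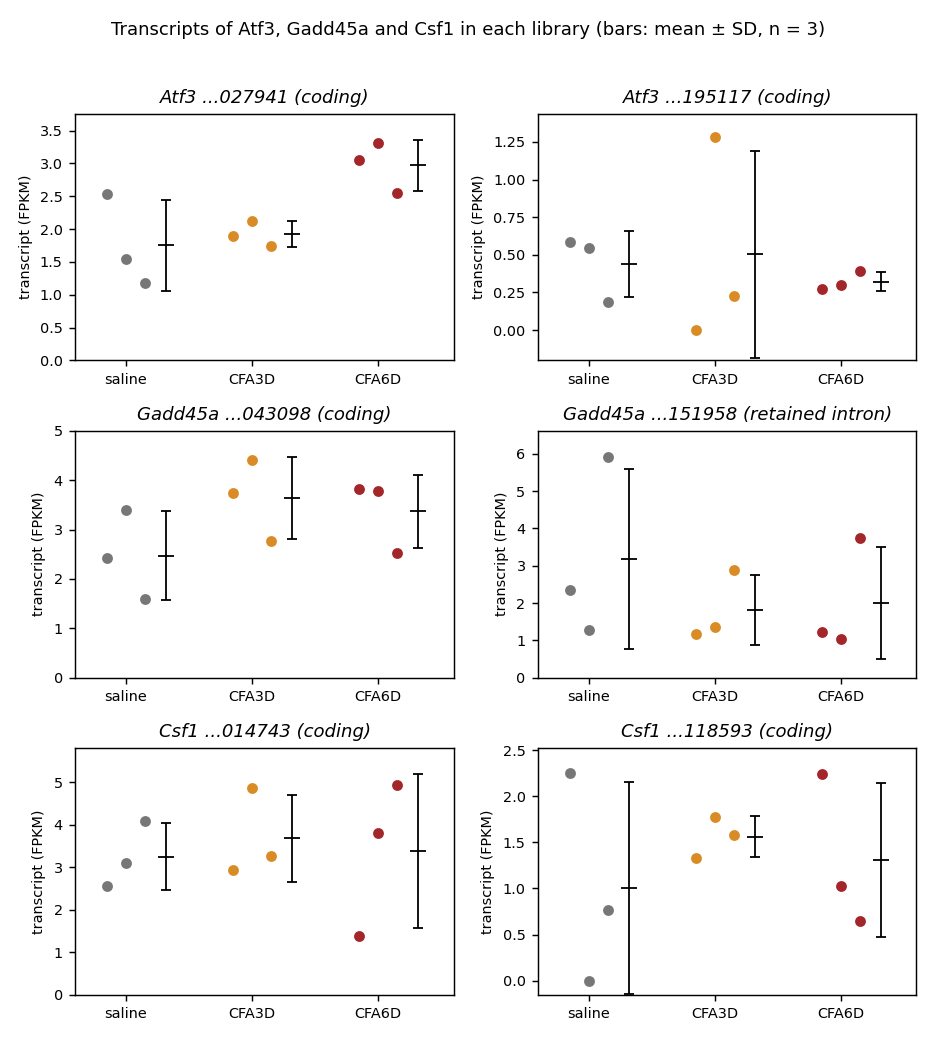
FPKM (vertical axis) of a pair of transcripts each of Atf3, Gadd45a and Csf1 in each library of the saline, CFA3D and CFA6D groups, with the mean ± SD of each group (n = 3) beside the points. The main Atf3 transcript lies at 2.55 to 3.31 FPKM on CFA6D, above the other groups, and the Csf1 transcript ENSMUST00000118593 ranges from 0 to 2.25 FPKM after saline.

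Counted together, 2 of the 9 members passed an unadjusted p under 0.05 on CFA3D (Jun higher and Ecel1 lower), against 4.45% of all gene sums tested. On CFA6D 1 of 9 passed (Jun, higher), against 11.1% of all gene sums, and between CFA6D and CFA3D 1 of 9 passed (Jun, higher), against 7.39%. With limma, 0 members had an adjusted p under 0.05 in any comparison. The median log2 difference of the 9 was 0.12 on CFA3D, 0.09 on CFA6D and 0.03 between the days, and over all gene sums it was 0.05, 0.03 and -0.02.

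The groups did not overlap for 2 of the 9 members on CFA3D (Jun and Ecel1), against 9.13% of all gene sums. They did not overlap for 2 members on CFA6D (Jun and Sox11), against 16.2%, and for 1 between the days (Jun), against 16.7%. Of the 30 member transcripts, 23 passed the filter and 3 were at 0 in all libraries. On CFA3D 2 of 23 passed at p under 0.05 (Jun and the Flrt3 transcript), against 4.67% of all 66206 transcripts tested, on CFA6D 2 (Jun and the main Atf3 transcript), against 6.81%, and between the days 3 (of Atf3, Csf1 and Gadd45a), against 5.43%. With 9 members a single gene is 11.1% of the list, so that these shares cannot be set finely against the background, and the 3 comparisons share libraries.

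A wider list of 94 regeneration genes, without the 9 members, was followed in 6 groups, and 90 of them passed the filter. On CFA3D 12 were higher and 0 lower at p under 0.05, and 76 of the 90 had a log2 difference above 0, beside 10398 of all 16096 gene sums. On CFA6D 27 were higher and 1 lower (Arg1), and 70 of the 90 were above 0, beside 8762 of 16096. Between CFA3D and CFA6D 9 were higher and 5 lower. These are 13.3%, 31.1% and 15.6% of the 90, beside 4.45%, 11.1% and 7.39% of all gene sums. The CFA3D count of 12 was 21 without saline replicate 1, 4 without saline replicate 2, 5 without CFA3D replicate 2 and 7 without CFA3D replicate 3, and the count of 14 between the days was 8 without CFA3D replicate 1 and 7 without CFA3D replicate 3. With limma, 0 of the 90 had an adjusted p under 0.05, the lowest being 0.124 on CFA6D. The median log2 difference of the list was 0.15 on CFA3D and 0.19 on CFA6D, beside 0.05 and 0.03 over all gene sums. The 14 sensory neuron markers had a median of 0.20 on both days. On CFA6D the 6 fibroblast markers had a median of -0.30 (3 of 6 lower, sums of 419.7 to 533.1 FPKM after saline and 317.6 to 533.9 FPKM on CFA6D), and the 10 macrophage markers of -0.35 (1 of 10 lower, 99.3 to 124.4 and 61.4 to 96.8 FPKM). The part of these cell types in the counts of the list was not tested.

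Calls over all gene sums leaned upward as well. Of all calls 82% were higher on CFA3D and 74.3% on CFA6D, and after quantile normalization 58.3% and 50.1%. With this scaling 4 genes of the list were higher and 0 lower on CFA3D, and 22 were higher and 6 lower on CFA6D. Without saline replicate 3 and CFA6D replicate 6, the counts were 9 higher and 0 lower on CFA3D and 18 higher and 2 lower on CFA6D. Of the named genes, Klf7, Hspb1, Ret and Cd44 then lost their call on CFA3D, and Cebpb, Cebpd and Il6st theirs between the days. Leaving out 1 library ended calls on CFA3D for Klf7 (without saline replicate 2 or 3 or CFA3D replicate 2), Hspb1 (saline replicate 2, CFA3D replicate 2 or 3), Ret (saline replicate 3, CFA3D replicate 3) and Cd44 (saline replicate 2 or 3, CFA3D replicate 1 or 3). Between the days it ended calls for Cebpd (CFA3D replicate 3, CFA6D replicate 5), Gadd45b (CFA3D replicate 1 or 2, CFA6D replicate 4), Il6st (CFA3D replicate 1 or 3) and Socs3 (CFA3D replicate 2, CFA6D replicate 5). The calls of the 8 genes with the smallest p on CFA6D held in all 9 of these fits.

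**Figure D4:**
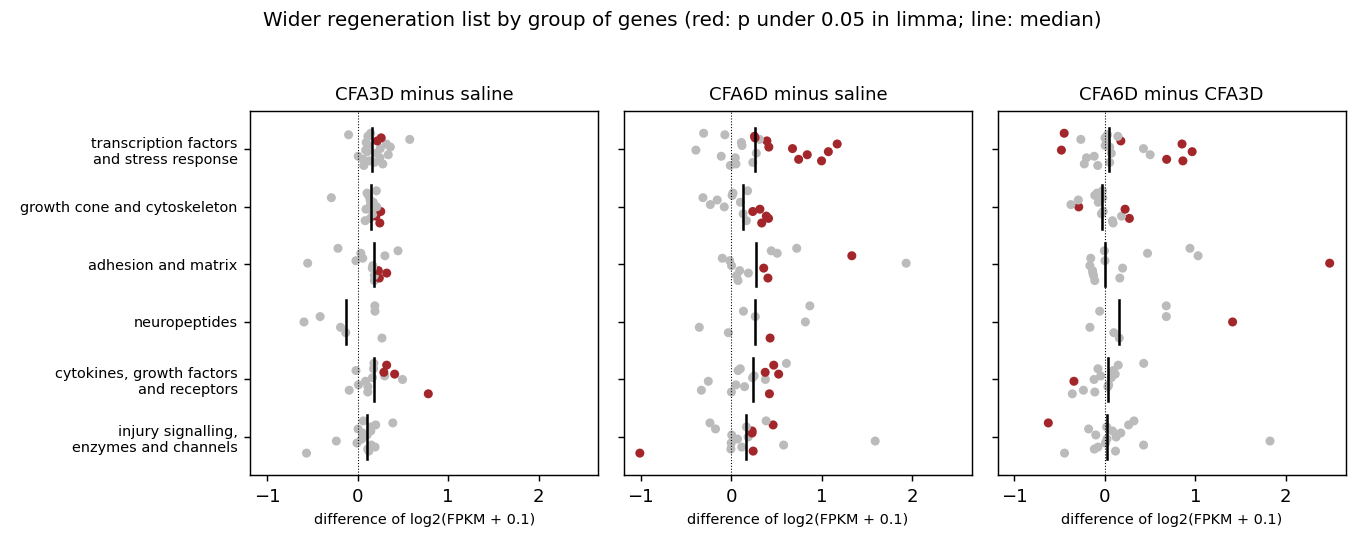
Differences of log2(FPKM + 0.1) for the 90 tested genes of the wider list in 3 comparisons (horizontal axis), by group of genes (vertical axis), with 1 point per gene, red where the unadjusted limma p was under 0.05, and a line at each group's median. On CFA6D 10 of 22 transcription factors and stress genes were red and all 10 lay above 0.

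The counts by group are read against the shares of all gene sums called, 4.45% on CFA3D, 11.1% on CFA6D and 7.39% between the days. Transcription factors and stress genes gave the highest count on CFA6D, with 10 of 22 higher at p under 0.05 and 0 lower. Fos, Junb and Egr1 of this group are also among the 12 immediate early genes, of which 6 were higher on CFA6D. Of the 9 glucocorticoid targets, 7 were higher on CFA6D. The part of these 2 lists in the count of the group was not tested. Fosl2, a partner of Jun in AP-1, rose 2.10-fold from 3.91, 3.38 and 4.32 FPKM after saline to 6.70, 9.64 and 8.58 FPKM on CFA6D (log2 difference 1.07, SE 0.21, adjusted p = 0.124). Its CFA3D values of 4.22, 5.51 and 3.09 FPKM overlapped with saline and lay below CFA6D (log2 difference 0.96 between the days, adjusted p = 0.498). Klf7, a factor that promotes axon growth, was at 25.2, 22.9 and 22.7 FPKM after saline, 26.2, 28.7 and 27.5 FPKM on CFA3D and 33.1, 30.8 and 29.4 FPKM on CFA6D. It rose by 0.22 on CFA3D and by 0.39 on CFA6D (adjusted p = 0.124) on the log2 scale, and its 3 groups did not overlap. Stat3, the factor of cytokine signalling with the highest level in the group, rose by 0.26 on CFA6D (adjusted p = 0.225), from 53.6 ± 2.42 to 64.0 ± 2.81 FPKM (SD, n = 3).

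Other partners of Jun, named after their values were seen, differed less than Fosl2. Fos was at 2.16 ± 0.597 FPKM after saline and 2.63 ± 0.698 FPKM on CFA6D (adjusted p = 0.735), and Jund at 49.5 ± 5.31 and 53.7 ± 5.02 FPKM (adjusted p = 0.742). Junb rose by 0.42 on CFA6D on the log2 scale (adjusted p = 0.451). Between the days, Cebpd and Cebpb, inflammatory transcription factors, rose by 0.68 (adjusted p = 0.633) and 0.86 (adjusted p = 0.641), and Gadd45b, a relative of Gadd45a, fell by 0.48 (adjusted p = 0.641). The Cebpb call was lost without CFA3D replicate 3, CFA6D replicate 5 or CFA6D replicate 6.

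Among growth cone and cytoskeleton genes 3 of 15 were higher on CFA3D and 5 of 15 on CFA6D, with 0 lower. Basp1, a relative of Gap43 in its function at the membrane of growth cones, rose from 28.1, 28.3 and 29.8 FPKM after saline to 32.1, 34.4 and 35.8 FPKM on CFA3D (log2 difference 0.25) and 35.8, 36.2 and 36.9 FPKM on CFA6D (0.34, adjusted p = 0.127). No CFA library of Basp1 overlapped with saline, unlike Gap43. The microtubule regulators Dpysl2 and Crmp1 rose by 0.39 (adjusted p = 0.156) and 0.41 (adjusted p = 0.163) on CFA6D, and Crmp1 by 0.27 between the days (adjusted p = 0.641), a call lost without CFA3D replicate 3 or CFA6D replicate 4. The small heat shock protein Hspb1 rose by 0.26 on CFA3D. Tuba1a, the most abundant gene of the group, was at 851 ± 95.9 FPKM after saline and 855 ± 77.6 FPKM on CFA6D (adjusted p = 0.982).

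Among cytokines, growth factors and their receptors 4 of 15 were higher on each CFA day against saline and 0 lower, where 4.45% and 11.1% of all gene sums were called. Bdnf, the neurotrophin that nociceptors release onto second-order neurons, rose 1.72-fold on CFA3D (log2 difference 0.78, SE 0.16). It was at 2.64, 2.22 and 2.34 FPKM after saline and at 3.36, 4.48 and 4.88 FPKM on CFA3D. The CFA6D libraries of Bdnf, at 3.60, 3.16 and 2.99 FPKM, were also above every saline library. Ngfr, the low-affinity neurotrophin receptor, rose by 0.41 on CFA3D and by 0.52 on CFA6D (adjusted p = 0.127). It is also 1 of 8 markers of repair Schwann cells, of which 5 were tested and 1, Ngfr itself, was higher. The other 7 summed to 12.8 to 28.2 FPKM after saline, 17.4 to 17.8 FPKM on CFA3D and 10.6 to 19.8 FPKM on CFA6D. The 28.2 FPKM was that of saline replicate 3, where Olig1 alone was at 16.6 FPKM. The other saline libraries lay below those of CFA3D and within the range of CFA6D. Ret, the receptor of GDNF signalling, rose by 0.32 on CFA3D and by 0.47 on CFA6D (adjusted p = 0.161). Il6st, the shared receptor of interleukin-6 cytokines, fell by 0.34 between CFA3D and CFA6D (adjusted p = 0.632).

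On CFA3D the remaining groups held calls for 3 of 14 adhesion and matrix genes, 0 of 7 neuropeptides and 0 of 17 genes of injury signalling, enzymes and channels. On CFA6D they held 3 of 14, 1 of 7 and 5 of 17 (4 higher and 1 lower), where 11.1% of all gene sums were called. Cd44, a receptor of hyaluronan, rose by 0.24 on CFA3D and 0.41 on CFA6D (adjusted p = 0.157). Mmp9, a matrix protease of neutrophils, rose by 2.48 between the days (adjusted p = 0.641) with 34.1 FPKM in CFA6D replicate 6 against 0.446 to 3.23 FPKM in the others, and by 1.23 without this library and saline replicate 3, and the call was lost without CFA3D replicate 3. Socs3, an inhibitor of cytokine signalling, fell by 0.62 between the days (adjusted p = 0.641). Anxa2 was at 270 ± 34.1 FPKM after saline and 283 ± 12.5 FPKM on CFA6D, Tac1 at 59.1 ± 7.52 and 65.4 ± 12.1 FPKM, and Mapk8ip3, a scaffold of JNK signalling upstream of Jun, rose by 0.23 on CFA6D (adjusted p = 0.371).

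The peptides Gal and Npy, which sensory neurons make after axotomy and which are named here after their values were seen, were at 6.56 ± 3.41 and 0.554 ± 0.222 FPKM after saline. On CFA3D they were at 5.30 ± 0.318 and 0.363 ± 0.235 FPKM and on CFA6D at 4.83 ± 1.30 and 1.21 ± 0.740 FPKM (SD, n = 3). The log2 difference of Gal on CFA6D was -0.35 (95% interval -1.07 to 0.37, adjusted p = 0.724). Npy rose between CFA3D and CFA6D by 1.41 (adjusted p = 0.666), from 0.372, 0.594 and 0.124 FPKM to 0.358, 1.60 and 1.68 FPKM. These 2 groups overlapped, and the highest value was that of CFA6D replicate 6. Against saline the log2 difference of Npy on CFA6D was 0.82 (95% interval -0.48 to 2.12, adjusted p = 0.658).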

How the data were processed

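Total RNA of the TG was sequenced in 9 libraries, and the authors deposited FPKM values per transcript for mRNA, lncRNA and other noncoding RNA (0 columns of per-sample values were left out). The study's methods name rRNA depletion with a stranded total RNA kit, trimming, GRCm38 and CLC Genomics Workbench, while the labels name a TruSeq RNA kit and the submitters' processing notes name Bowtie 0.12.2 and mm8. The tool that made the FPKM values is not given in the sources used here. CircRNAs, RT-PCR and behaviour were not analysed here.

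Transcripts were matched to GENCODE M21 (101539 of 102122 mRNA transcripts) and FPKM was summed by gene. The worth of 1 read pair was read from the steps of low values, and read pairs behind a value are approximate. Values were compared as log2(FPKM + 0.1), so folds of low genes are understated, in limma 3.58.1 (R 4.3.3) with a trended prior, all 9 libraries in 1 fit and a mean of at least 0.1 FPKM. A call was an unadjusted p under 0.05, the cutoff of the study, and Benjamini-Hochberg adjusted p-values cover all features tested. An exact permutation test of 3 against 3 cannot go below 0.1 and was not used, and single unadjusted p-values are not printed. The fit was tested on simulated data. Other steps used Python 3.11.15, numpy 2.4.6, pandas 2.3.3 and matplotlib 3.10.9.

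All 9 members are named. In the wider list the 8 genes with the smallest p of each comparison and the most abundant gene of each of the 6 groups are named, with other names marked, except 1 gene that is not reported here. Member transcripts are named where p was under 0.05 or where they were the most or second most abundant. The members and lists were chosen with earlier results of these data known. Replicate numbers are shared by saline and CFA3D only. Alternatives were the pseudocount, the filter, quantile normalization, the libraries in the fit, a replicate block, each library left out and the top transcript in place of the sum. Leaving out saline replicate 3 and CFA6D replicate 6 together was chosen after seeing the data.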

Additional observations from a re-analysis of the deposited data

Results flagged for a closer look

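Jun passed the test of 1 day after CFA against the other in the fit over gene sums. The test of CFA6D against CFA3D itself gave a log2 difference of 0.17 (95% interval 0.0025 to 0.34, limma adjusted p = 0.671), from 23.3 ± 1.53 to 26.3 ± 1.33 FPKM (SD, n = 3), and day 6 after saline was not analysed here. The call was lost in 6 of the 9 fits that each left out 1 library and in the fit across all transcripts.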

How the results depend on the processing

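Saline was sampled on day 3 only and no counts were used here. The intervals of Sprr1a and Ecel1, on 2.0 to 62.8 and 5.2 to 208.8 read pairs, were the widest of the 9 members. Of 462 member values under alternatives, 409 kept direction and side of the threshold, 31 reversed, 15 lost and 7 gained a call. Of 416 values of the named genes of the wider list, 364 kept both and 52 lost the call. The cause was not tested.

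Quantile normalization gave log2 differences of 0.0064 for Csf1 between the days, -0.0675 for Gap43 on CFA6D and -0.0166 for Sox11 between the days. The top transcript gave -0.10 for Csf1, 0.0707 for Flrt3 and 0.47 for Gadd45a on CFA6D, and 0.58 for Gadd45a on CFA3D. Members called on CFA3D numbered 1 with a pseudocount of 1, a mean of at least 1 FPKM or the top transcript. Between the days 0 were called with a mean of at least 1 FPKM or only the libraries compared, and 2 with the top transcript, and on CFA6D 2 with the top transcript. Member transcripts called on CFA3D numbered 1 with a pseudocount of 0.01, a mean of at least 1 FPKM, no filter, quantile normalization, only the libraries compared or the replicate block, and between the days 1 with a mean of at least 1 FPKM. The wider list gave 4 on CFA3D with quantile normalization.

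The numbers shared by saline and CFA3D did not pair the libraries, with same-number correlations of 0.06, -0.129 and 0.0421. With the replicate block 7 genes of the wider list were called on CFA3D in place of 12, and Jun kept its call.

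Without saline replicate 3 and CFA6D replicate 6, values reversed to -0.12 for Atf3 and 0.054 for Gadd45a on CFA3D, and to 0.47 for Ecel1, -0.0838 for Gap43 and -1.32 for Sprr1a on CFA6D. Members called on CFA6D then numbered 2 and member transcripts between the days 1.

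Leaving out each library in turn gave, on CFA3D, -0.14 to 0.39 for Atf3, -0.0347 to 0.23 for Csf1, -0.0111 to 0.14 for Flrt3 and -0.19 to 0.054 for Gadd45a. On CFA6D it gave -0.0937 to 0.29 for Csf1, -1.49 to 0.0397 for Ecel1, -0.13 to 0.0184 for Flrt3, -0.0821 to 0.0694 for Gap43 and -0.78 to 0.61 for Sprr1a. Between the days it gave -0.21 to 0.17 for Csf1, -0.14 to 0.0369 for Gadd45a and -0.0278 to 0.11 for Sox11. Members called ranged from 1 to 2 on CFA3D, 1 to 2 on CFA6D and 0 to 2 between the days, member transcripts from 1 to 4, 1 to 4 and 0 to 3, and the wider list from 4 to 21, 20 to 30 and 7 to 15.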
